A study of Mus musculus with 15 samples.

Results

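The 8 genes described here encode secreted proteins of the acute phase and of antimicrobial defence, and their levels were followed in Mouse Embryonic Fibroblasts (MEFs) across 5 culture conditions. They are *Saa1*, *Saa2*, *Saa3*, *Lcn2*, *Hp*, *Slpi*, *Ptx3* and *Orm1*. The group was chosen on levels already measured on these arrays, so their own levels and differences are given as a description and carry no test. They were found by the RefSeq transcript that each probe names, out of 23462 genes so named on the array, which gave 10 of its 56605 distinct probes, 2 each for *Lcn2* and *Slpi* and 1 for each of the others. The transcripts named by the probes are NM_009117 (*Saa1*), NM_011314 (*Saa2*), NM_011315 (*Saa3*), NM_008491 (*Lcn2*), NM_001329965 (*Hp*), NM_011414 (*Slpi*), NM_008987 (*Ptx3*) and NM_008768 (*Orm1*).

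RNA of an established Balb/c MEF line, labelled 3T3, was hybridised to 15 one-color arrays, 3 for each of 5 groups. Control MEFs received no cytokine. The other groups were treated by TNFα at 10 ng/ml, by TGFß1 at 5 ng/ml, by IL-1β at 1 ng/ml, or by IL-6 at 20 ng/ml together with its soluble receptor sIL-6Rα at 25 ng/ml. Exposure lasted 24 h for the control, TNFα and TGFß1 groups and is not stated for the IL-1β and IL-6 groups, so between these and the other groups a difference in cytokine and a difference in time cannot be told apart. The model is a single established line in culture. The study describes the control, TNFα and TGFß1 arrays as biological replicates from independent experiments, and the labels do not say which arrays share an experiment. Neither source describes the arrays of IL-1β or of IL-6 in this way, and their spread may be partly technical. Arrays are called by their group and the number that opens their label, such as control 6.

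The acute phase response is the change in plasma proteins that follows infection or injury. IL-1 and TNF act on it largely through NF-κB, and IL-6 through gp130 and STAT3, with C/EBP factors acting beside both. The liver is the classical source of these proteins, but fibroblasts, epithelia and leukocytes make several of them locally, where they bind iron, haem proteins, lipids or microbes, or block proteases.

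Levels are log2 of the spot brightness after the scanner software's background subtraction, minus the 75th percentile of the array, so 0 is the 75th percentile of the same array. That percentile lay between 508 and 683 brightness units, 48.3% to 54.9% of the probes of an array were well above background, and no spot was saturated. The probes of different genes are not compared in level. Values of a group are given in the order of its label numbers, each group holds 3 arrays, and the SE of a gene is that of the linear fit and the same for its 4 differences from control. The 15 arrays lay on 2 slides, slide 2 with IL-6 13, IL-1β 15, TGFß1 2 and 12, TNFα 4 and 9, and control 6, and slide 1 with the others. All 10 fibroblast markers (*Col1a1*, *Pdgfra*, *Vim* and others) were well above background on all 15 arrays. Of 8 hepatocyte markers *Apob* and *Cyp3a11* were so on 1 array each, and the others, *Alb*, *Ttr*, *Ahsg*, *Apoa1*, *Hnf4a* and *Serpina1a*, on 0. The leukocyte markers were mixed and are given with their values at the end of the results.

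The serum amyloid A genes lie side by side. In RefSeq's annotation of GRCm38.p6 the genes from *Saa3* to *Saa2* follow each other in the order *Saa3*, *Gm31882*, *Saa4*, *Saa-ps*, *Saa1* and *Saa2*. Promoters, here the 250 bases before the transcript start, were matched in RefSeq's table of the same build for 6 of the 8 genes, all but *Hp* and *Orm1*. Of these, 4 are shown because they belong to the genes with the widest range of responses and to a pair of near-identical neighbours, written 5′ to 3′ on the gene's strand with C/EBP-type letters in capitals.
Saa3 (chr7:46715677-46715926, - strand): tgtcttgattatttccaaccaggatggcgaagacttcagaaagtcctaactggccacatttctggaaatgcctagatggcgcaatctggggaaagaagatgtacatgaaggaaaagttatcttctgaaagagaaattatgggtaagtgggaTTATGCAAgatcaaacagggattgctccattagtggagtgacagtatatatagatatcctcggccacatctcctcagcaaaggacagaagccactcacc
Saa1 (chr7:46742981-46743230, - strand): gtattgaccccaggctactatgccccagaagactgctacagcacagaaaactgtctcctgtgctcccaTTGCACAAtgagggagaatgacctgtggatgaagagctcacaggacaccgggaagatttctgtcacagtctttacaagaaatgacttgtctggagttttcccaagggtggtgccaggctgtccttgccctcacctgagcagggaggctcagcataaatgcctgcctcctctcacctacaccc
Saa2 (chr7:46751583-46751832, + strand): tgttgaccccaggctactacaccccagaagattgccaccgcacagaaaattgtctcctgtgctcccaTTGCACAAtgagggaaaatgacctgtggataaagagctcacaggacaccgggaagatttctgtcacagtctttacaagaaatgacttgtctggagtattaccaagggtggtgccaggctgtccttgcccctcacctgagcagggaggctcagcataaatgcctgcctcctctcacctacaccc
Lcn2 (chr2:32387740-32387989, - strand): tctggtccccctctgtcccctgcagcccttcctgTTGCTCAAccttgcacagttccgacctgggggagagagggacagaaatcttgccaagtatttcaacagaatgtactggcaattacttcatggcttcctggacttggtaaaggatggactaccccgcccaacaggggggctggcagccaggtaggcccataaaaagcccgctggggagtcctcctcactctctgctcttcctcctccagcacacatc
The promoters of *Saa1* and *Saa2* were identical at 238 of 249 aligned bases (95.6%), and these genes lie on opposite strands. The letters searched on both strands were TTGCNNAA and TTACNNAA for C/EBP, TTCNNNGAA for STAT, and GGGRNNYYCC for NF-κB. In these, R is A or G, Y is C or T, and N is any base. Each of the 6 promoters held 1 C/EBP-type match, also those of *Slpi* (from -241 to -234 relative to the start) and *Ptx3* (from -57 to -50), where 16.5% of all 32851 promoters of the table hold at least 1. The match lay at -182 to -175 in *Saa1*, at -183 to -176 in *Saa2*, at -99 to -92 in *Saa3* and at -216 to -209 in *Lcn2*. The STAT and NF-κB letters searched were not found in the 6 windows, against 7.02% and 7.25% of all promoters. Longer or less strict forms of these motifs were not searched, so the windows may hold such forms. With 1 match in each window, no overlap between the searched motifs could occur. A match is a run of letters and was not tested as a binding site.

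**Figure D1:**
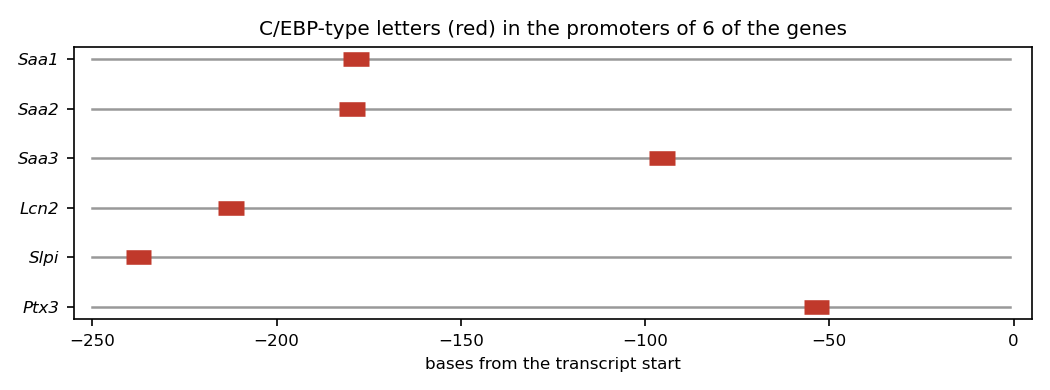
Position of the C/EBP-type letters (red blocks) in the 250 bases before the transcript start of 6 of the genes, with the distance from the start in bases on the horizontal axis. Each promoter holds 1 match, nearest to the start in *Ptx3* (-57 to -50) and farthest in *Slpi* (-241 to -234).

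*Saa3* encodes the serum amyloid A isoform made mainly outside the liver, and it had the widest range of the 8 genes between proinflammatory cytokines and control. The control arrays 1, 6 and 11 lay at -3.42, -3.46 and -3.69. The TNFα arrays 4, 9 and 14 lay at 3.80, 5.30 and 3.80, and the IL-1β arrays 5, 10 and 15 at 3.20, 5.27 and 3.24. Both groups were thus far above every control array and overlapped each other, with array 9 and array 10 as the highest of their groups. The difference from control was 7.82 with TNFα (SE 0.64), a fold-change of 226, and 7.43 with IL-1β, a fold-change of 172. With normexp background correction these differences were 6.66 and 6.26. With IL-6 the arrays 3, 8 and 13 lay at -2.45, -1.07 and -2.74, above the control arrays by a difference of 1.44 and clear of them by 0.68. That gap was smaller than the SD within the IL-6 group, 0.89, and with normexp the difference was 0.84. With TGFß1 the arrays 2, 7 and 12 lay at -4.79, -5.86 and -4.19, below the control arrays by a difference of -1.42. Array 7 of that group was not well above background, and the gap to the controls, 0.50, was smaller than the SD within the group, 0.85. With normexp this difference was -0.37.

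*Saa1* encodes a serum amyloid A isoform that the liver releases into plasma in inflammation. The control arrays lay at -3.33, -2.02 and -2.97, the TNFα arrays at 0.47, 1.69 and -0.74, and the IL-1β arrays at -1.16, 0.51 and -0.13. TNFα and IL-1β arrays overlapped each other and lay above all control arrays, with differences of 3.25 (SE 0.57) and 2.51, that is fold-changes of 9.50 and 5.71. The IL-6 arrays lay at -3.16, -2.97 and -2.34 and the TGFß1 arrays at -2.29, -3.00 and -2.40. These groups overlapped the control arrays, with differences of -0.05 and 0.21 that are smaller than their SE. The neighbour *Saa2* encodes the other liver isoform, and its probe was not well above background on 14 of the 15 arrays. The exception was IL-6 8, at -4.60, and no fold-change is given. How far transcripts of *Saa1*, *Saa2* and the pseudogene *Saa-ps* bind each other's probes was not tested, so the value of *Saa1* is uncertain as that of 1 gene.

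*Slpi* encodes the secretory leukocyte protease inhibitor, a WAP-domain protein that blocks neutrophil elastase and acts on microbes. The control arrays lay at -1.16, -0.75 and -2.13, the TNFα arrays at 3.09, 3.19 and 2.71 and the IL-1β arrays at 2.93, 3.28 and 2.65. TNFα and IL-1β gave overlapping levels far above the controls, with differences of 4.34 (SE 0.50) and 4.30 and fold-changes of 20.3 and 19.8. IL-6 arrays, at -0.07, 0.77 and -0.90, overlapped the control arrays with a difference of 1.28. TGFß1 arrays, at -1.37, -3.13 and -2.79, overlapped them with a difference of -1.08. The second probe of *Slpi* was dimmer, with every array between -4.12 and -2.87. Its differences were 1.08 with TNFα and 0.89 with IL-1β (SE 0.15), again with no overlap with control, and 0.20 with TGFß1, where the brighter probe had a negative value.

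*Lcn2* encodes lipocalin 2, which binds bacterial siderophores and so withholds iron. Its brighter probe lay at -4.37, -1.59 and -3.48 on the control arrays, with control 6 well above the other two. The IL-1β arrays lay at 2.26, 4.72 and 3.14, all above every array of the other groups, IL-6 8 included. The difference of IL-1β from control was 6.52 (SE 0.91), a fold-change of 91.6. The TNFα arrays, at -3.47, -2.79 and -3.78, lay within the range of the control arrays, with a difference of -0.20. *Lcn2* thus differed between the TNFα and IL-1β groups, by 6.72 with a gap of 5.06 between the arrays, whereas *Saa3*, *Saa1* and *Slpi* overlapped between them. With IL-6 the arrays lay at -1.71, 1.91 and -1.10 and the lowest of them was below control 6, so the difference of 2.85 (fold-change 7.19) came with overlapping groups. The TGFß1 arrays lay at -4.63, -5.03 and -4.64, below all control arrays by a difference of -1.62 and a gap of 0.26. That gap was smaller than the SD within the control group, 1.42, and with normexp the difference was -0.68. The second probe gave 6.97 for IL-1β and 3.23 for IL-6, where only 1 of the 3 control arrays was well above background. On that probe no TNFα array was well above background, and the IL-1β group was at least 71.8-fold higher than the TNFα group.

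*Hp* encodes haptoglobin, which binds free haemoglobin. The control arrays were spread, at -0.58, -1.76 and 0.48. The IL-6 arrays lay at 2.59, 2.76 and 3.77 and the IL-1β arrays at 2.68, 2.69 and 3.69. These groups overlapped each other and lay above all controls, with differences of 3.66 (SE 0.53) and 3.64 and fold-changes of 12.6 and 12.4. The TGFß1 arrays, at 1.19, 1.23 and 2.34, also lay above all control arrays, with a difference of 2.21 and a fold-change of 4.61. The gap to the control arrays, 0.71, was smaller than the SD within the control group, 1.12. Of all tested probes 7.17% were called higher with TGFß1, and the share whose arrays were separated in this way was not counted. The TNFα arrays, at 0.39, 0.56 and 1.03, overlapped control 11 and had a difference of 1.28. *Orm1*, which encodes a plasma glycoprotein that binds lipids and drugs, was not well above background on any of the 15 arrays, with levels between -7.94 and -5.75.

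*Ptx3* encodes the long pentraxin 3, a soluble pattern recognition protein that binds microbes and complement. Among the 8 genes it had the largest fall in any group. The control arrays lay at 0.09, 0.72 and 0.94 and the TGFß1 arrays at -5.32, -4.96 and -4.28, with TGFß1 2 not well above background. The difference was -5.43 (SE 0.38), a level 43.2-fold lower, and the gap between the groups was 4.37. The size depended on the background correction, with a difference of -3.39 under normexp. The TNFα arrays, at -0.08, 0.53 and 0.37, and the IL-1β arrays, at 0.45, 1.55 and 1.38, overlapped the control arrays, with differences of -0.31 and 0.54. The IL-6 arrays lay at 1.12, 2.29 and 1.82, just above the control arrays with a difference of 1.16 and a gap of 0.19, smaller than the SD within either group. In bulk RNA, a level shared by all cells and a high level in some of them cannot be told apart.

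**Figure D2:**
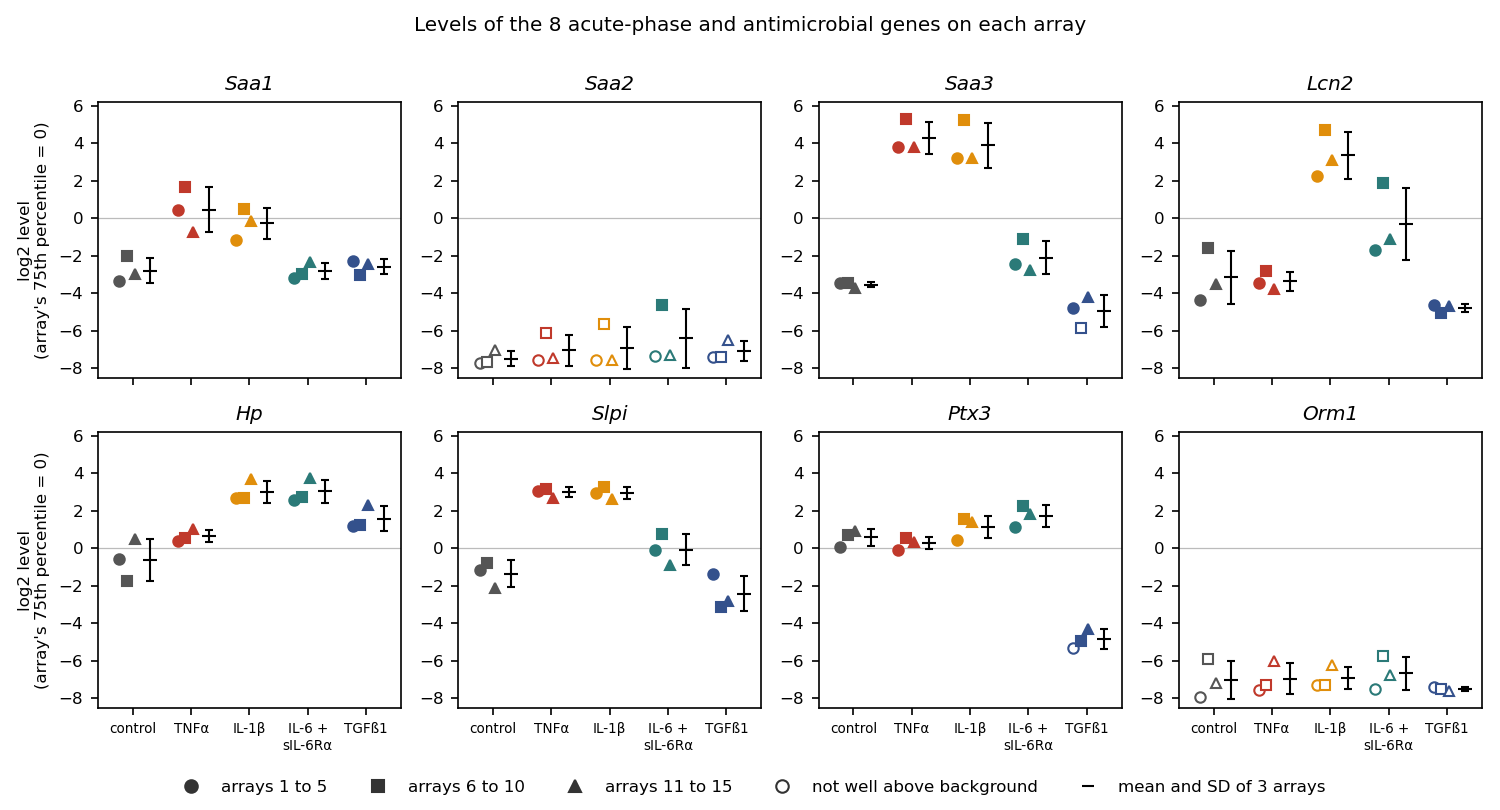
Log2 level relative to the 75th percentile of the array (vertical axis) for the 8 genes in the 5 groups, 1 point per array, with the symbol for the run of label numbers, open symbols where the probe was not well above background, and the mean and SD of 3 arrays beside them. *Saa3* and *Slpi* sit high with TNFα and IL-1β, *Lcn2* with IL-1β, *Hp* with IL-1β, IL-6 and TGFß1, and *Ptx3* low with TGFß1.

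Set in order of their group means, the genes followed different orders. For *Saa3*, *Saa1* and *Slpi* TNFα came first and IL-1β next, with overlapping arrays. For *Lcn2* IL-1β came first and IL-6 next, with a gap of 0.36 that is smaller than the SD of 1.93 within the IL-6 group. For *Hp* IL-6 and IL-1β came first with overlapping arrays, then TGFß1, then TNFα. The gaps of TGFß1 to IL-6, IL-1β and TNFα, 0.25, 0.34 and 0.16, were smaller than the SD of 0.65 within the TGFß1 group. For *Ptx3* IL-6, IL-1β, control and TNFα followed each other with overlapping neighbours, and TGFß1 came last.

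**Figure D3:**
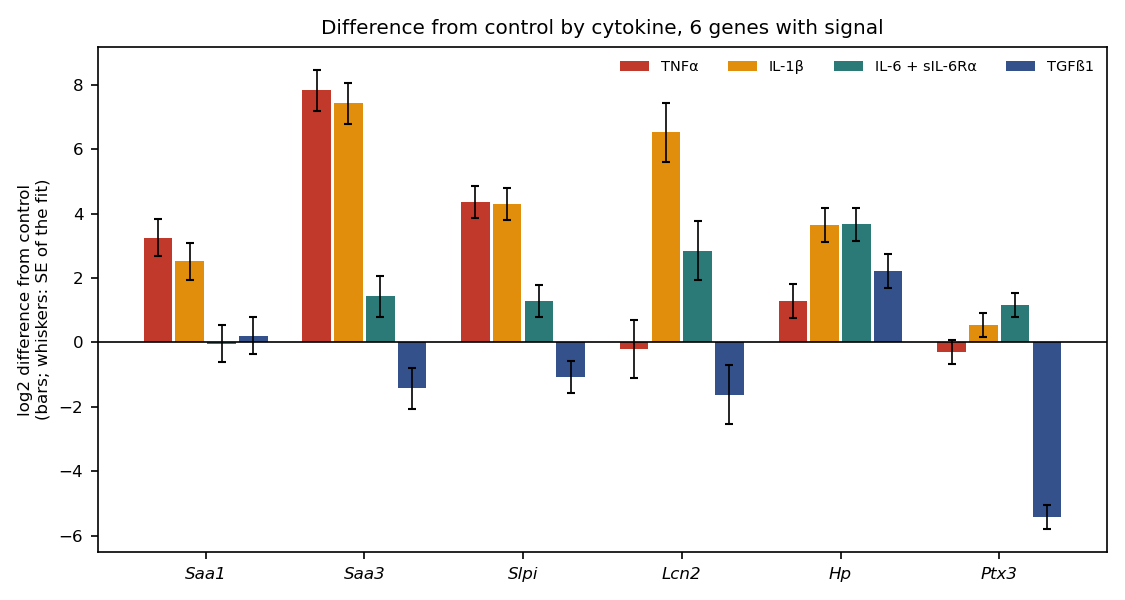
Log2 difference from the control mean (bars) with the SE of the linear fit (whiskers) for the 6 genes with signal and the 4 cytokine treatments. *Saa3* reaches 7.82 with TNFα and 7.43 with IL-1β, *Lcn2* 6.52 with IL-1β but -0.20 with TNFα, and *Ptx3* -5.43 with TGFß1.

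The 4 comparisons with control share the same 3 control arrays. In the limma fit of all 15 arrays, in which a call needed both a q-value under 0.05 and a change of at least 1.5-fold either way, 6 of the 8 genes had a tested probe. With TNFα 3 of the 8 genes were called higher (*Saa1*, *Saa3*, *Slpi*) and 0 lower, where 4.12% of the 29334 tested probes were called higher and 6.06% lower. With IL-1β 4 were called higher (*Saa3*, *Lcn2*, *Hp*, *Slpi*) and 0 lower, against 0.245% and 0.00682% of all tested probes. With IL-6 1 was called higher (*Hp*) and 0 lower, against 0.0648% and 0%. With TGFß1 1 was called higher (*Hp*) and 1 lower (*Ptx3*), against 7.17% and 10.8%. These counts rest on the values that chose the genes, so nothing is read from them.

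The label numbers fall into 3 runs of 5 (1 to 5, 6 to 10, 11 to 15), each with 1 array of every group, and the levels of several genes followed the runs. *Hp* was highest on the array of numbers 11 to 15 in all 5 groups. *Slpi* and *Lcn2* were highest on the array of numbers 6 to 10 in 4 of the 5 groups. Taken against the control array of the same run, the difference of *Lcn2* with IL-1β was 6.63, 6.31 and 6.62, much closer together than its levels. The same differences of *Lcn2* with IL-6 were 2.66, 3.50 and 2.38, all above 0. *Hp* gave 3.17, 4.52 and 3.29 with IL-6 and 3.26, 4.45 and 3.21 with IL-1β. With TGFß1 *Lcn2* gave -0.26, -3.44 and -1.16 and *Slpi* -0.20, -2.37 and -0.66, so that the run of 6 to 10 was the farthest from 0 for both.

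**Figure D4:**
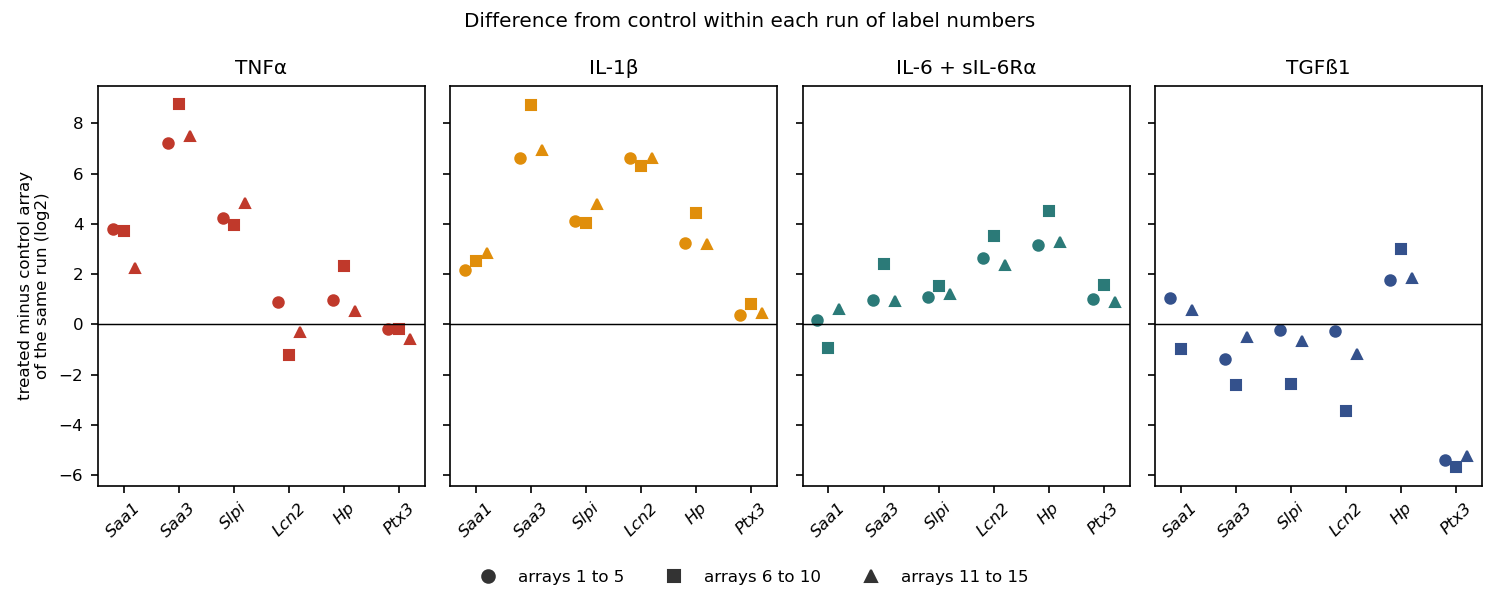
Log2 difference between the treated and the control array of the same run of label numbers (vertical axis) for 6 genes and 4 treatments, 1 symbol per run. *Lcn2* with IL-1β lies between 6.31 and 6.63 in the 3 runs, *Saa3* between 6.62 and 8.76 with TNFα and IL-1β, and *Lcn2* with TNFα lies on both sides of 0.

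Slide 2 held 1 control array, control 6, whose *Lcn2* was the highest and whose *Hp* was the lowest of the controls, and the values within slides differ. The difference of *Lcn2* with IL-6 was 4.02 within slide 1 and 0.49 within slide 2, and with IL-1β 7.41 and 4.73. That of *Hp* was 2.74 and 5.44 with IL-1β, 2.73 and 5.52 with IL-6, and 1.28 and 3.52 with TGFß1. *Saa3* varied less, with 7.35 and 8.01 for TNFα and 7.79 and 6.70 for IL-1β, and *Ptx3* with TGFß1 was at -5.47 and -5.52. The difference of *Saa1* was 2.41 and 3.1 with TNFα and 2.83 and 1.89 with IL-1β, and that of *Slpi* 4.35 and 3.89 with TNFα and 4.75 and 3.41 with IL-1β.

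The calls of 2 genes were lost when single arrays were left out, while their differences stayed large. The call of *Hp* with IL-6 was lost when control 1, control 6, IL-6 3, IL-6 8 or IL-6 13 was left out, with differences of 3.68, 3.09, 3.88, 3.80 and 3.30 in that order. With IL-1β the call of *Hp* was lost without control 1 or IL-1β 15, with differences of 3.66 and 3.30. That of *Lcn2* was lost without control 1, control 11 or IL-1β 10, with differences of 5.91, 6.35 and 5.85. The calls of *Saa3* and *Slpi* with TNFα and IL-1β, of *Saa1* with TNFα and of *Hp* and *Ptx3* with TGFß1 were kept whichever array of the 2 groups was left out. *Hp* was also called with TNFα without control 11, and *Slpi* was called lower with TGFß1 without TGFß1 2. The genes were chosen on these arrays, so calls kept or lost are a description and lend the differences no support.

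Across the 15 arrays, the genes closest in pattern were sought among 950 genes whose group means spanned at least 2 on the log2 scale. All share the same arrays, and r here describes them. Closest to *Saa3* were *C3* (Pearson's r 0.97), *Tlr2* (0.95) and *Plscr1* (0.94). Closest to *Slpi* were *Cxcl1*, *Stfa3* (both 0.95) and *C3* (0.95), and closest to *Saa1* were *Slc43a2* (0.94), *Gpr84* (0.93) and *Arhgap27os3* (0.92). *Lcn2* was closest to *Il6* (0.87), *Dcxr* (0.83) and *Aqp3* (0.83). For *Hp* the closest genes reached lower values, *Wfdc21* 0.72, *C430002N11Rik* 0.71 and *Socs3* 0.65, while *Ptx3* had *Plpp3* at 0.99, *Gda* at 0.98 and *C1rl* at 0.97. Among the genes themselves, r was 0.97 between *Saa3* and *Slpi*, 0.89 between *Saa3* and *Saa1*, 0.56 between *Lcn2* and *Hp* and 0.20 between *Saa3* and *Hp*.

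Other acute-phase and antimicrobial genes were mostly without signal in these MEFs. Of 74 genes in 4 lists, 20 had signal on all arrays of some group and were tested, that is 6 of 24 further positive acute-phase proteins, 1 of 9 negative acute-phase proteins, 6 of 26 antimicrobial proteins and 7 of 15 relatives of the WAP-domain, lipocalin and pentraxin families. With TNFα, where 4.12% of all tested probes were called higher and 6.06% lower, 2 of the 20 rose, both positive acute-phase proteins. These were *Mt2*, a zinc-binding metallothionein, with a difference of 2.79 (q = 8.61e-05), and *Cp*, the copper ferroxidase ceruloplasmin, with 2.13 (q = 0.0349). *Svep1*, a large adhesion protein with a pentraxin domain, fell with TNFα by 0.99 (q = 0.0186). No antimicrobial and no negative acute-phase protein passed the limma test with TNFα, where 1 and 0 had an unadjusted p below 0.05.

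With IL-1β and with IL-6, 0 of the 20 passed the limma test, while 6 with IL-1β and 4 with IL-6 were higher at an unadjusted p below 0.05 and 0 were lower in either. Of all tested probes 0.245% were called higher and 0.00682% lower with IL-1β, and 0.0648% and 0% with IL-6. With TGFß1, where 10.8% of all tested probes were called lower and 7.17% higher, 7 of the 20 fell and 0 rose. At an unadjusted p below 0.05 in the limma test, 3 were higher and 8 lower with TGFß1. Of the 7, 4 were positive acute-phase proteins. *Lbp*, which presents lipopolysaccharide to CD14, was at least 2.36-fold lower (q = 0.0115), *Mt2* changed by -2.20 (q = 0.000291), *Cp* by -1.90 (q = 0.0364) and *Mt1* by -1.28 (q = 0.000613). The others were *Svep1* at -2.30 (q = 5.44e-05), the calcium-binding *S100a8* at -1.94 (q = 0.0176) and the lipocalin *Apom* at -0.94 (q = 0.00389). The median difference of the 20 genes was 0.21 with TNFα, 0.05 with IL-1β, 0.02 with IL-6 and -1.0 with TGFß1, where that of all tested probes was 0.04, 8.73e-05, -0.000577 and 0.05. Within slide 1 and slide 2 the medians of the 20 were 0.09 and -0.18 with TNFα, 0.39 and -0.10 with IL-1β, 0.23 and -0.53 with IL-6, and -0.49 and -0.92 with TGFß1. These lists were drawn up with results of these arrays known, and all genes were adjusted over all tested probes.

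Of 17 genes listed as receptors or binding partners of the 8 proteins, 12 had signal on all arrays of some group and were tested. Among all tested probes 4.12%, 0.245%, 0.0648% and 7.17% were called higher with TNFα, IL-1β, IL-6 and TGFß1. The shares called lower were 6.06%, 0.00682%, 0% and 10.8%. With TNFα 3 rose. These were the gelatinase *Mmp9* with 4.31 (q = 1.19e-05), the toll-like receptor *Tlr2* with 1.83 (q = 0.000506) and *Plscr1*, a partner of SLPI, with 1.75 (q = 1.85e-06). *Mmp9* was listed as a partner of lipocalin 2, and their binding in mouse cells was not tested. The lipocalin 2 receptor *Slc22a17* fell by 1.08 (q = 0.0372) and *Bdh2*, an enzyme of the mammalian siderophore, by 0.64 (q = 0.0115). With IL-1β 1 rose, *Plscr1* with 1.02 (q = 0.00161), and with IL-6 0 passed the limma test and 0 had an unadjusted p below 0.05. With TGFß1 *Bdh2* rose by 1.51 (q = 2.39e-05) and *Fgf2*, a growth factor that pentraxin 3 binds, by 2.98 (q = 0.000268), from a control group with 1 of 3 arrays well above background. *Tlr4* changed by -2.61 (q = 0.000408), *Slc22a17* by -1.45 (q = 0.00496) and *Tlr2* by -1.10 (q = 0.00763).

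Cytokine receptors and transcriptional regulators upstream of these genes were tested for 23 of 25 genes. Among all tested probes 4.12%, 0.245% and 0.0648% were called higher with TNFα, IL-1β and IL-6. The shares called lower were 6.06%, 0.00682% and 0%. With TNFα 6 rose, all of the NF-κB system, led by its inhibitor *Nfkbia* with 2.42 (q = 2.46e-06), *Relb* with 1.94 (q = 1.3e-05) and *Nfkb2* with 1.46 (q = 0.00588). They were followed by *Bcl3* with 1.13, *Nfkb1* with 1.10 and *Rel* with 0.88. With TNFα 5 fell, *Cebpa* with -1.81 (q = 0.0026), *Cebpd* with -1.44 (q = 0.000776), *Il6ra* with -1.24, *Stat3* with -1.01 and *Tnfrsf1a* with -0.73. With IL-1β 5 rose and 0 fell. The 5 were *Nfkbiz*, which encodes IκBζ, with 1.49 (q = 0.000552), *Cebpd*, which encodes C/EBPδ, with 1.43 (q = 0.0132), *Bcl3* with 1.23, *Relb* with 1.21 and *Nfkbia* with 1.11. With IL-6 4 rose and 0 fell. They were *Socs3*, the feedback inhibitor of gp130, with 2.39 (q = 0.00116), *Cebpd* with 1.71 (q = 0.00983), *Bcl3* with 1.65 (q = 0.00779) and *Nfkbiz* with 1.35 (q = 0.00408). *Cebpd* was thus called higher with IL-1β and IL-6 and lower with TNFα. *Nfkbiz*, with 0.40 under TNFα, was not called there. Whether these regulators take part in the levels of *Lcn2* or *Hp* was not tested.

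With TGFß1 1 regulator rose, the inhibitory *Smad7* with 2.00 (q = 0.00942), and 13 fell. Of all tested probes 7.17% were called higher and 10.8% lower with TGFß1. The largest falls were those of *Il6ra* with -2.54 (q = 0.000213), *Cebpa* with -2.07 (q = 0.000613), *Bcl3* with -1.62 (q = 0.000131), *Il6st*, which encodes gp130, with -1.38 (q = 0.000498), *Il1r1* with -1.22 (q = 0.000266) and *Il1rap* with -1.11 (q = 0.0196). *Socs3*, with -0.21, and *Nfkbiz*, with 0.23, did not pass the test.

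**Figure D5:**
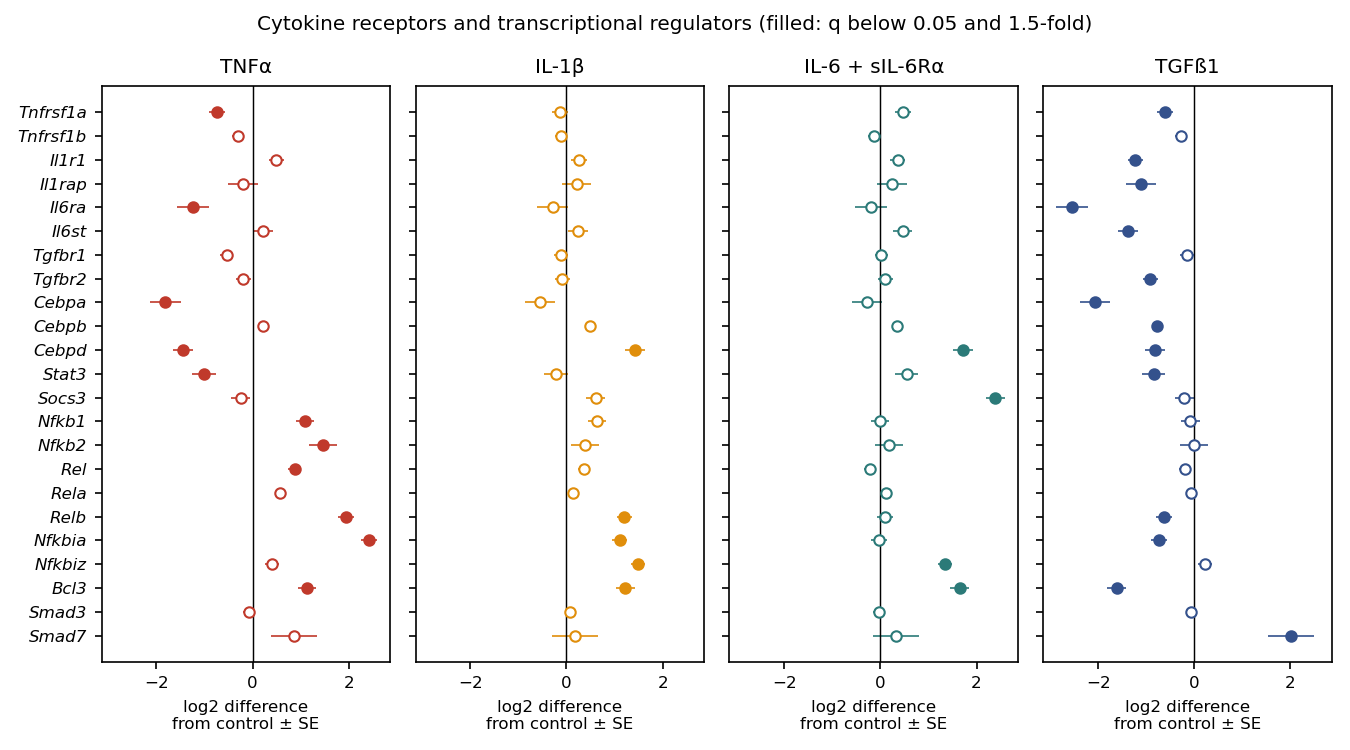
Log2 difference from control with its SE (horizontal axis) for the 23 tested cytokine receptors and transcriptional regulators under each treatment, with filled points for genes called at a q-value below 0.05 and a fold-change of 1.5. *Nfkbia* and *Relb* lead with TNFα, *Socs3*, *Cebpd* and *Bcl3* with IL-6, and 13 genes lie below 0 and are called with TGFß1.

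Leukocyte markers were read on the same arrays. Of 8 macrophage markers 3 to 4 were well above background on an array, with a summed level (relative to the 75th percentile) of 6.67 to 14.6 on control, 7.90 to 15.2 on TNFα, 7.27 to 15.8 on IL-1β, 7.08 to 15.3 on IL-6 and 7.64 to 13.5 on TGFß1 arrays. These ranges follow the slides, since all slide 1 arrays lay between 6.67 and 7.90 and all slide 2 arrays between 13.3 and 15.8. *Csf1r*, *Cd68* and *Itgam* were well above background on all 15 arrays. The mannose receptor *Mrc1*, another of the 8, was well above background on 7 arrays, among them all TNFα and IL-1β arrays. On control 6 and control 11 only *Csf1r*, *Cd68* and *Itgam* were so. *Mrc1* rose with TNFα by 3.58 (q = 0.00017), a difference taken against mostly dim control arrays. It entered the limma test only through the groups in which it is high, so its q-value is not read as support. *Ptprc*, *Adgre1*, *Cd163* and *Fcgr1* were not well above background on any array. Of 8 neutrophil markers 3 to 6 were well above background on an array, with sums of 32.4 to 50.7 on control, 39.8 to 51.6 on TNFα, 34.7 to 50.4 on IL-1β, 35.8 to 49.0 on IL-6 and 30.4 to 47.6 on TGFß1 arrays. Here too the slides were apart, with 30.4 to 40.1 on slide 1 and 42.4 to 51.6 on slide 2. *S100a8*, which is also in the antimicrobial list, *Elane* and *Csf3r* were well above background on all 15 arrays, *Camp* on 12, and *S100a9* and *Ngp* on 0. What part leukocyte RNA or the slide has in the levels of the 8 genes was not tested.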

How the data were processed

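RNA was measured on Agilent one-color 60-mer arrays, with files extracted by Agilent Feature Extraction 10.7.3.1. The authors deposited scanner files whose intensity per spot is already background-subtracted but not normalized between arrays. The deposited series table repeats these intensities (largest difference 0). Non-uniform spots and population outliers, by the software's marks, were dropped, log2 intensities were averaged per probe, and each array's 75th percentile over its 59305 non-control spots was subtracted. A probe counted as well above background where at least 0.5 of its spots carried the software's mark. The 29334 probes with signal on all 3 arrays of some group were tested with limma 3.58.1 in R 4.3.3, in 1 model of 15 arrays without covariate, with two-sided moderated tests and Benjamini-Hochberg adjustment. The procedure was tested on simulated data with independent noise and without runs or slides, so that test does not cover their effects. RefSeq identifiers named 33767 of 56605 probes. Each gene is given by its brightest probe. For lists of more than 12 called genes the 6 largest changes per direction are named, otherwise all, and for each tested gene of the group the 3 genes with the highest r. A fold-change against a group without any array above background is a bound, the bright group's mean against the higher of the dim probe's level and the array's dimmest level above background. Precision is set by the 3 arrays per group. The genes and lists were chosen with earlier results of these data known. Normexp on the median signal, quantile normalization, other filters, slide, run and fold criteria, and leaving out each array were the alternatives. The authors' comparisons were not used. Sequences and gene order are RefSeq's (GRCm38.p6). The array was designed on an older build, so probe positions are not given.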

Additional observations from a re-analysis of the deposited data

How the results depend on the processing

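A count was taken as close within 1.5-fold, and a difference within the SD inside the groups. Of the differences 21 moved further and 12 changed sign, and of the counts 37 moved further. Of the counts and differences recomputed, 542 stayed close to their values. Those that did not are given here or, for differences within slides, in the report, with *Lcn2* at -1.54 and *Hp* at 2.23 for TNFα within slide 2, *Lcn2* at -3.04 for TGFß1 within slide 2, and *Slpi* at 2.00 for IL-6 and *Saa3* at -2.30 for TGFß1 within slide 1. The 2 related genes called higher with TNFα became 1 with no filter on dim probes, 4 with slide and runs as terms, and 1 to 2 when an array was left out. The 1 called lower became 2 with no filter, 2 with slide and runs, 0 at a fold of at least 2, and 0 to 1 without an array. With IL-1β the 0 called higher became 1 with normexp, 2 with runs and 4 with slide and runs. With IL-6 the 0 became 1 with slide, 1 with runs, 2 with slide and runs, and 0 to 1 without an array. With TGFß1 the 7 called lower became 4 with normexp, and the 0 called higher became 1 with no filter, 1 with slide, 2 with runs, 2 with slide and runs and 0 to 1 without an array. Of the 8 genes described, the 4 called with IL-1β became 2 with only the 6 arrays of both groups and 2 to 4 without an array. The 1 called with IL-6 (*Hp*) became 0 with no filter, 0 with only 6 arrays, 2 with slide and runs (*Ptx3* added) and 0 to 1 without an array. The 2 called with TGFß1 became 1 with only 6 arrays (*Hp* lost) and 4 with slide and runs (*Lcn2* and *Slpi* added, both lower). *Hp* was called with TNFα with runs, and *Saa1* with IL-1β with slide. With normexp *Saa3* became 6.66 with TNFα, 6.26 with IL-1β and -0.37 with TGFß1, and *Ptx3* -3.39 with TGFß1. With the mean of all probes *Slpi* became 2.71 with TNFα and 2.6 with IL-1β. Small differences changed sign. *Lcn2* with TNFα was 0.14 within slide 1 and between -0.81 and 0.57 without an array (0.57 without control 6). *Saa1* with IL-6 was 0.09 within slide 1 and between -0.33 and 0.33 without an array. *Slpi* with IL-6 was -0.15 within slide 2. *Saa1* with TGFß1 was -0.09 with slide, -0.12 with slide and runs, -0.32 within slide 2, and between -0.07 and 0.59 without an array. The cause was not tested in any of these. Over all tested probes the 74 called with IL-1β became 320 with slide and runs and 11 with only 6 arrays, the 19 with IL-6 became 228 and 0, and the 2986 with TNFα and 5283 with TGFß1 lay between 1589 and 4513 and between 2684 and 7303. The labels give no replicate number that groups share and do not say whether a run is 1 experiment. With the runs as a term the 2986, 74, 19 and 5283 called with TNFα, IL-1β, IL-6 and TGFß1 became 3874, 163, 68 and 5997. Dim probes limit what can be said of *Saa2* and *Orm1*.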
